A study of Mus musculus with 4 samples.

Results

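Retinoid metabolism in brown adipose tissue (BAT) was followed through 9 genes, Dhrs9, Dhrs3, Rdh10, Aldh1a1, Aldh1a2, Aldh1a3, Rbp4, Stra6 and Bco1, which were picked by name out of 55387 gene rows. The set was put together with earlier results of the same libraries known, the low Dhrs9 of the libraries labelled Sox4-MKO among them, so the genotype differences of these 9 genes are given as a description and without a test. The tissue came from 4 male mice aged 15 weeks on a C57BL/6 background, 2 controls with floxed Sox4 alleles (Sox4f/f, called WT in the labels) and 2 littermates labelled Sox4-MKO, in which Cre driven by Myf5 removes floxed Sox4. Myf5 is active in the precursors of skeletal muscle as well as of brown adipocytes, so deletion in this model is not restricted to fat. Each mouse gave 1 library of whole tissue, although the labels name adipocytes as the cell type, and in such bulk samples fewer cells of a type and less RNA per cell cannot be told apart.

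Vitamin A reaches fat cells as retinol bound to RBP4, or as carotenoids that BCO1 cleaves to retinal. Retinol dehydrogenases oxidise retinol to retinal, retinal reductases turn it back, and the ALDH1A enzymes carry retinal on, irreversibly, to retinoic acid. Retinoic acid acts through nuclear receptors of the RAR and RXR families and is broken down by CYP26 enzymes. In brown adipocytes retinoic acid is a known inducer of Ucp1, and in white fat both retinal and Aldh1a1 have been tied to the control of thermogenic genes.

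Expression was deposited as FPKM, a count of fragments divided by transcript length and by library size, so levels of different genes can be compared per length. From the smallest values of genes with 1 annotated transcript, depth was estimated at about 12100000 to 16200000 fragments per library. Sox4 itself was measured at 1.98 and 1.06 FPKM in control mice, compared with 0.98 and 3.06 FPKM under the Sox4-MKO label. Its mRNA was thus not lower in those libraries, and all directions follow the labels. For protein, the paper reports strongly reduced SOX4 in BAT of younger Sox4-MKO mice. Summed over 10 brown adipocyte markers, expression was between 9740 and 10056 FPKM in Sox4f/f and between 5702 and 6767 FPKM in the other genotype. None of these 10 markers was listed at 0, and 5 were lower at an unadjusted p under 0.05 by limma, a rule that called 8.28% of all tested genes lower and 7.95% higher. Pparg, Adipoq and Plin1, which are not restricted to brown adipocytes, are on this list and were not among the 5. The 8 skeletal muscle markers differed far more, at 199.7 and 739 FPKM in Sox4f/f mice 1 and 2 against 14225 and 2482 FPKM in the mice labelled Sox4-MKO 1 and 2, so Sox4-MKO mouse 1 stood apart from the other 3 libraries. By that rule 7 of the 8 were higher. The sum of 8 stromal progenitor markers was 363 to 395 FPKM in Sox4f/f against 736 to 789 FPKM, with all 8 higher. That of 8 macrophage markers was 213 to 316 FPKM against 434 to 442 FPKM, with 6 higher.

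The sequences upstream of the 3 genes with the largest differences are shown first, since they are the regulatory stretches a reader would go to. RefSeq promoter windows on GRCm38.p6 were matched for 7 of the 9 genes, all but Rdh10 and Aldh1a3, and run from 250 bases before to 50 bases after an annotated start. The 230 bases of each window that end 20 bases short of the start are printed 5′ to 3′ on the gene's strand. They lie at chr2:69380212-69380441 on the plus strand for Dhrs9, at chr19:20492333-20492562 on the plus strand for the first start of Aldh1a1 and at chr19:38124832-38125061 on the minus strand for the inner start of Rbp4. Aldh1a1 and Rbp4 have 2 annotated starts each, and the window of the other start held no match. Capitals mark matches to the motifs searched.
Dhrs9: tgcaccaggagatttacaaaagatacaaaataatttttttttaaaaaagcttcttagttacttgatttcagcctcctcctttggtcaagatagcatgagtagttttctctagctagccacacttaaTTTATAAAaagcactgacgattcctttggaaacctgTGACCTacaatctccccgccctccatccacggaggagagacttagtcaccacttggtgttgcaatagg
Aldh1a1: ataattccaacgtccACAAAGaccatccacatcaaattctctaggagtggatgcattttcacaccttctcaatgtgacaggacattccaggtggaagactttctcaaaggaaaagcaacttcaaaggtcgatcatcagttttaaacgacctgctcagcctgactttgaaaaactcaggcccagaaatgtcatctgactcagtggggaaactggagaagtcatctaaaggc
Rbp4: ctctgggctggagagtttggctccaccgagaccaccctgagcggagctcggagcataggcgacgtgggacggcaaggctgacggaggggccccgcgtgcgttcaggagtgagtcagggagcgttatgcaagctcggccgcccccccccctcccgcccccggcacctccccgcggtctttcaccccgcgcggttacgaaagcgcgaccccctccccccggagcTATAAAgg
The motifs, searched on both strands of the whole windows, were the receptor hexamer AGGTCA, the direct repeat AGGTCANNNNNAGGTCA of classical retinoic acid response elements, the Sox core ACAAAG, the Ebf core CCCNNGGG and the TATA box core TATAAA. The Dhrs9 window held 1 receptor hexamer, read as TGACCT on the printed strand, whose first base lies 88 bases before the start, and a pair of overlapping TATA cores that begin 124 and 122 bases before it. The Aldh1a1 window held 1 Sox core 235 bases before the start. The Rbp4 window held 1 TATA core 28 bases before the start and none of the other motifs. Of 32851 windows of the same length, 16.3% held the hexamer, 18.7% the Sox core, 13.7% the Ebf core, 13.6% the TATA core and 0.00913% the direct repeat. None of the 7 genes' windows held the direct repeat. These matches are descriptions of letters, each of a kind found in many promoters.

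Dhrs9 was lower and Aldh1a1 and Rbp4 were higher under the Sox4-MKO label, whereas Rdh10 differed little and Dhrs3 overlapped between the genotypes. Of the 9 genes, 6 passed the filter of the study's methods, an averaged FPKM above 1 in at least 1 genotype. Aldh1a3 passed only through the libraries labelled Sox4-MKO, where it is higher, and so had to differ. Without overlap between the genotypes, 2 of the 6 were lower and 3 were higher, beside 29.6% and 21.7% of all 12877 tested genes, or 51.3% in either direction. Because the genes were chosen on this contrast, nothing is read from that count. Differences below are Sox4-MKO minus Sox4f/f on the log2(FPKM + 1) scale, where low genes appear to differ less than they do, with the standard error (SE) of a limma fit across all tested genes, whose median difference was -0.05.

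**Figure D1:**
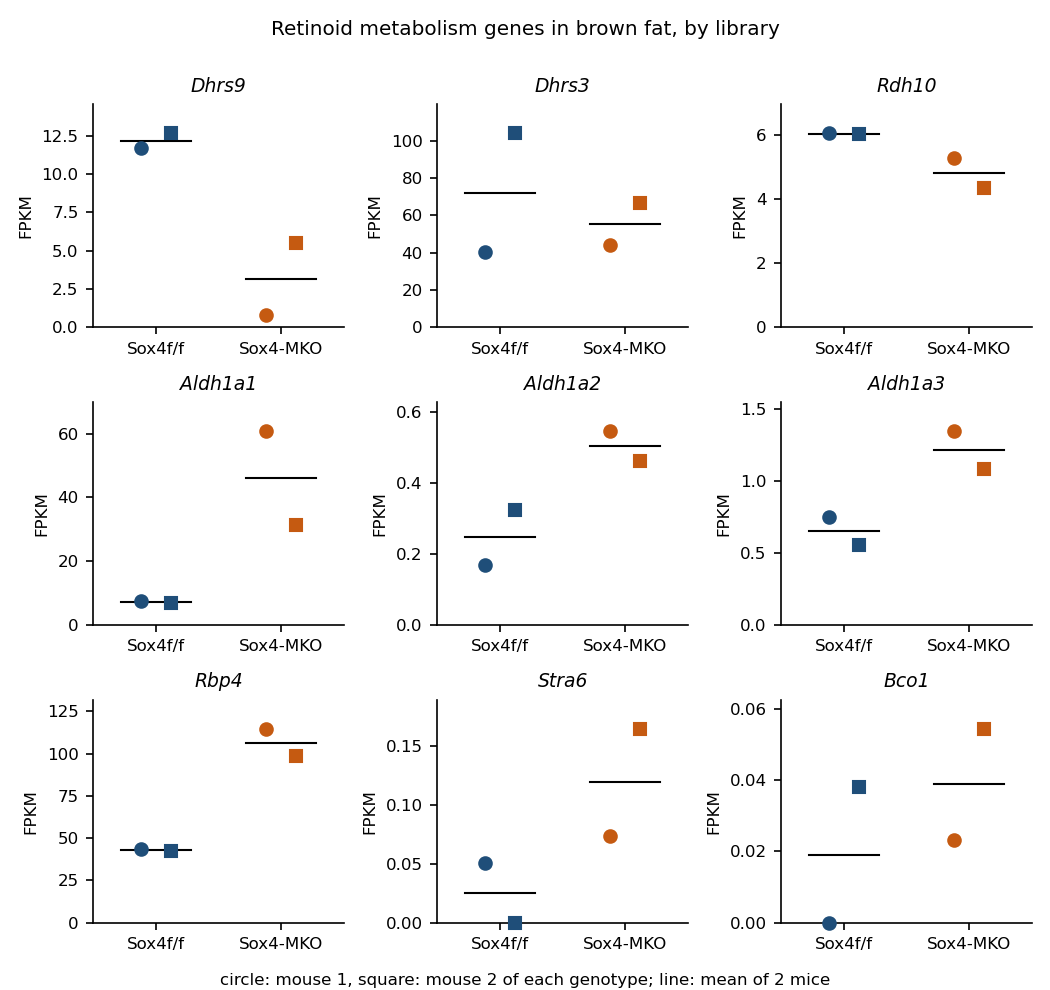
FPKM of the 9 retinoid metabolism genes in each library, on linear axes that start at 0. Blue points are the 2 Sox4f/f mice, orange points the 2 mice labelled Sox4-MKO, circles mouse 1, squares mouse 2, and lines the mean of 2 mice. Dhrs9 averaged 12.2 FPKM in blue and 3.12 FPKM in orange with a wide gap between both orange points, and Aldh1a1 and Rbp4 lay above all control values.

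Among the enzymes that pass retinol to retinal, Dhrs9, a short-chain dehydrogenase that oxidises retinol and also acts on steroids, carried the largest difference. Dhrs9 spans bases 69380445 to 69404533 of chromosome 2 (GRCm38, plus strand), with 1 annotated transcript of 5 exons (ENSMUSG00000027068.6 in GENCODE M21, matched by symbol). Its level was 11.7 FPKM in control mouse 1 and 12.7 FPKM in control mouse 2, against 0.77 FPKM in Sox4-MKO mouse 1 and 5.47 FPKM in Sox4-MKO mouse 2. The control mice were close to each other, and both of the other mice lay below them but far apart. The mean was 12.2 ± 0.66 FPKM in Sox4f/f against 3.12 ± 3.32 FPKM (SD, n = 2 each), 3.91 times higher in Sox4f/f. The log2 difference of Dhrs9 was -1.96 with a standard error of 0.63, the 24th lowest of 12877 tested genes.
The size of this difference depended on which Sox4-MKO mouse was kept. Without Sox4-MKO mouse 1 the log2 difference of Dhrs9 was -1.03, and without Sox4-MKO mouse 2 it was -2.90. Between the mice labelled Sox4-MKO, Dhrs9 differed 7.08-fold, a gap on the log2 scale wider than in 97.9% of tested genes in the same pair of libraries. Counting error was much smaller than this gap. About 42 fragments stood behind the value of mouse 1 and about 379 behind that of mouse 2. Their 95% Poisson intervals of 0.56 to 1.05 FPKM and 4.93 to 6.04 FPKM take these estimated counts as known and cover counting error only. The library with the lowest Dhrs9 was also the library with the highest skeletal muscle markers, and the part of muscle RNA in the difference was not tested. Plin1, which coats the lipid droplet of all adipocytes, was at 726 and 851 FPKM in the controls and at 708 and 710 FPKM in the other mice. Other adipocyte genes were less even between Sox4-MKO mice 1 and 2. Adipoq was at 989 and 821 FPKM in the controls against 711 and 1123 FPKM, and Pparg at 197 and 155 against 127 and 153 FPKM. The part of adipocyte content in the Dhrs9 difference was not tested.

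Rdh10, the main retinol dehydrogenase of the embryo, was at 6.06 and 6.03 FPKM in the controls and at 5.28 and 4.35 FPKM in Sox4-MKO mice 1 and 2. The genotypes did not overlap, and the log2 difference of Rdh10 was -0.28 (SE 0.17), or -0.17 without Sox4-MKO mouse 2. Rdh10 lies on chromosome 1 from 16105774 to 16133734. In Sox4f/f Dhrs9 stood above Rdh10 in both libraries, and in the other genotype their values overlapped.
Dhrs3 reduces retinal back to retinol and is itself a known target of retinoic acid. With 40.3 and 104 FPKM in Sox4f/f mice 1 and 2 and 44.3 and 66.7 FPKM in Sox4-MKO mice 1 and 2, Dhrs3 varied more within a genotype than between genotypes. The control mice differed 2.58-fold, a wider gap than in 98.3% of tested genes in that pair of libraries. Its mean was 72.2 ± 45.2 FPKM against 55.5 ± 15.9 FPKM (SD, n = 2 each). The log2 difference of -0.25 (SE 0.49) turned to 0.42 without Sox4f/f mouse 2 and to 0.04 without Sox4-MKO mouse 1, so the direction of Dhrs3 hung on single libraries. Dhrs3 lies on chromosome 4 from 144892827 to 144928209.

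At the next step, from retinal to retinoic acid, the 3 ALDH1A genes differed widely in level, and Aldh1a1 stood far higher under the Sox4-MKO label. Aldh1a1, the main retinal dehydrogenase of white fat, reached 60.8 and 31.2 FPKM in Sox4-MKO mice 1 and 2, compared with 7.46 and 6.75 FPKM in the controls. Both mice labelled Sox4-MKO lay far above the controls, mouse 1 at 1.95 times mouse 2. Mouse 1 was also the library with the most muscle marker RNA, whose part in the level of Aldh1a1 was not tested. The mean was 7.11 ± 0.50 FPKM against 46.0 ± 20.9 FPKM (SD, n = 2 each), 6.47 times higher. The log2 difference of Aldh1a1 was 2.46 with a standard error of 0.33, the 148th highest of 12877, and it stayed between 1.99 and 2.93 with each library left out in turn. Aldh1a1 lies on chromosome 19 from 20492715 to 20643465 on the plus strand and has a close relative, Aldh1a7, further along the same chromosome. Of the 50-base stretches in the longest coding transcript of Aldh1a1, 6.54% also occur in transcripts of Aldh1a7, so a small share of fragments could have been assigned to either gene.
Aldh1a3, which also makes retinoic acid, stood at 0.75 and 0.56 FPKM in the controls and at 1.34 and 1.08 FPKM under the Sox4-MKO label, from about 23 to 60 fragments. Its log2 difference was 0.42 (SE 0.24) and depended on the processing, at 0.19 after quantile normalization and at 0.89 with 0.01 added in place of 1. Aldh1a2, the main retinoic acid synthase of the embryo, had 0.17 and 0.32 FPKM against 0.55 and 0.46 FPKM and was below the filter. With about 5 and 9 fragments against 16 and 17, the values of Aldh1a2 did not overlap between the genotypes, but rest on few fragments, and the difference was not tested. Within each library Aldh1a1 stood above Aldh1a3, and Aldh1a3 above Aldh1a2. Mesothelial cells are a known source of Aldh1a2. Of 8 mesothelium markers, 3 (Upk3b, Upk1b and Wt1) were listed at 0 in all libraries. The list summed to between 0.68 and 1.44 FPKM, most of it Lrrn4, at 0.97 and 0.53 FPKM against 0.99 and 1.09 FPKM. Msln, Krt8 and Krt18 were higher in both mice labelled Sox4-MKO, at no more than 0.26 FPKM, and Krt19 overlapped. The part of mesothelial cells in Aldh1a2 was not tested.

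Rbp4, the serum carrier of retinol, which adipocytes also secrete, stood at 43.4 and 42.4 FPKM in control mice 1 and 2 and at 115 and 98.5 FPKM in Sox4-MKO mice 1 and 2. The mice of a genotype were close to each other and the genotypes were well apart. Its mean was 42.9 ± 0.70 against 107 ± 11.3 FPKM (SD, n = 2 each), 2.48 times higher. The log2 difference of Rbp4 was 1.29 with a standard error of 0.13, the 475th highest, and ranged from 1.18 to 1.40 over 13 alternatives of scaling, filter, pseudocount, block and left-out library. Rbp4 lies on chromosome 19 from 38116629 to 38125281 on the minus strand. In Sox4f/f mouse 1 it stood above Dhrs3 and in Sox4f/f mouse 2 below it, whereas in both mice labelled Sox4-MKO it was the highest of the 9 genes.
Stra6, the membrane receptor that takes up retinol from RBP4, was hardly detected, with 0.05 FPKM and a listing at 0 in Sox4f/f against 0.07 and 0.16 FPKM, from at most about 8 fragments per library. If that listing is a true count of 0, it allows up to 3 fragments by a one-sided 95% limit, or 0.081 FPKM of Stra6 in Sox4f/f mouse 2. Bco1, which cleaves beta-carotene to retinal, had 0.02 to 0.05 FPKM in 3 libraries and was listed at 0 in Sox4f/f mouse 1. There a true count of 0 would allow up to 0.096 FPKM by the same limit. With so few fragments no difference in Stra6 or Bco1 was tested.

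In order of level, Sox4f/f tissue held Dhrs3 and Rbp4 at the top without a clear order between them, then Dhrs9, Aldh1a1 and Rdh10, and then the remaining 4 genes below 1 FPKM. In the libraries labelled Sox4-MKO Rbp4 came first, Dhrs3 and Aldh1a1 overlapped, and Dhrs9, from 0.77 to 5.47 FPKM, overlapped Rdh10 and spanned both values of Aldh1a3. Aldh1a2, Stra6 and Bco1 followed.

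The genes closest to Dhrs9 in pattern were found by the Euclidean distance between log2(FPKM + 1) values centred on each gene's mean, over 4 libraries and 12877 genes. They were Gm25395 at a distance of 0.36, Dio2 at 0.74, Gk at 0.80, 2510046G10Rik at 0.80 and Igkv1-88 at 0.83. Dio2, the deiodinase that makes active thyroid hormone in BAT, had 51.9 and 42.8 FPKM against 10.1 and 33.5 FPKM, and Gk, glycerol kinase, 66.0 and 63.5 FPKM against 15.2 and 50.7 FPKM. Both were lowest in Sox4-MKO mouse 1, as Dhrs9 was, which follows from picking them by likeness to Dhrs9. Closest to Rbp4 were Col1a2 at 0.039, Sfrp2 at 0.076, Adgrd1 at 0.084, Islr at 0.12 and Hsd11b1 at 0.12. Col1a2, a collagen chain made by stromal cells, had 42.8 and 42.5 FPKM against 111 and 98.2 FPKM, almost the values of Rbp4 in every library. The stromal progenitor marker Dcn stood at 118 and 155 FPKM in the controls versus 267 and 239 FPKM. White adipocyte markers summed to 215 and 169 FPKM in the controls versus 516 and 608 FPKM. Of the 6 tested, 3 were higher at an unadjusted p under 0.05 by limma, beside 7.95% of all tested genes. By sign alone 5 were higher and 1 was lower, beside 5671 higher of all 12877. The part of stromal cells or of white adipocyte character in the higher Rbp4 was not tested. With 4 libraries these distances are descriptions only.

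**Figure D2:**
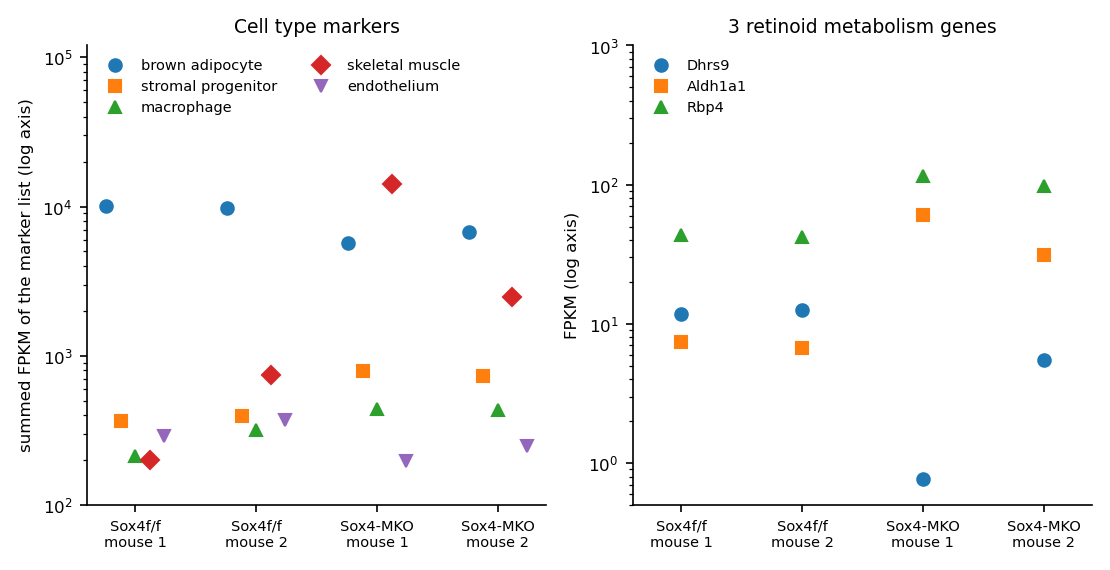
Left, summed FPKM of the lists for brown adipocytes, stromal progenitors, macrophages, skeletal muscle and endothelium in each library. Right, FPKM of Dhrs9, Aldh1a1 and Rbp4 in the same libraries, both on log axes. Skeletal muscle markers peak at 14225 FPKM in Sox4-MKO mouse 1, where Dhrs9 is lowest at 0.77 FPKM and Aldh1a1 highest at 60.8 FPKM.

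The remaining genes of the pathway showed no common direction. A list of 53 other genes of retinoid handling and response was written from known roles, with some earlier results of these data known, that of Lipe among them. Of the 53 genes, 25 passed the filter and 9 were listed at 0 in all libraries. At an unadjusted p under 0.05 by limma, 3 of the 25 were lower and 4 were higher, 12.0% and 16.0% of them, beside 8.28% and 7.95% of all tested genes. After Benjamini-Hochberg adjustment over all 12877 genes limma called 0% of them, the smallest adjusted p being 0.191, against 2090 genes at an unadjusted p under 0.05. The median log2 fold change of the 25 genes was -0.03, close to that of all tested genes. For a single gene, the smallest p that exact two-sided permutation of 2 and 2 mice allows is 0.333.

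Fabp5, which carries fatty acids and retinoic acid inside the cell, was higher at 193 and 151 FPKM, over control values of 59.7 and 84.4 FPKM. Its log2 fold change of 1.26 (SE 0.22, limma adjusted p = 0.196) had the same direction under all 13 alternatives, and every mouse labelled Sox4-MKO lay above both controls. Aldh1a7, the relative of Aldh1a1, stood at 20.4 and 24.3 FPKM in controls versus 65.1 and 34.5 FPKM. Its log2 fold change was 1.06 (SE 0.33, limma adjusted p = 0.253), and like Aldh1a1 it was highest in Sox4-MKO mouse 1. Leaving out Sox4-MKO mouse 1 lowered it to 0.61, leaving out Sox4-MKO mouse 2 raised it to 1.51, and it was no longer called without Sox4f/f mouse 1 (0.94) or Sox4f/f mouse 2 (1.18). Rarres2, the retinoid-responsive adipokine chemerin, was at 130 and 106 FPKM over control values of 65.4 and 82.5 FPKM, with a log2 fold change of 0.67 (SE 0.18, limma adjusted p = 0.229). It was not called without Sox4f/f mouse 1 (0.50) or without Sox4-MKO mouse 1 (0.52).
Lipe, the hormone-sensitive lipase that also hydrolyses retinyl esters in adipocytes, stood at 586 and 593 FPKM in the controls and at 494 and 459 FPKM under the Sox4-MKO label. Its log2 fold change was -0.31 (SE 0.11, limma adjusted p = 0.298), and it was no longer called under 8 of 13 alternatives. No gene of the other retinyl ester enzymes, Dgat1, Lpl and Ces1d, was called. Lrat, which stores retinol as ester, was at most 0.057 FPKM.

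The RXR receptors, partners of RAR and of the PPAR receptors, differed in opposite directions, while the RAR receptors did not pass the test. Rxra was higher at 28.3 and 27.5 FPKM, over control values of 18.9 and 20.4 FPKM. Its log2 fold change was 0.49 (SE 0.12, limma adjusted p = 0.223), and without Sox4f/f mouse 1 it was not called, at 0.43. Rxrb was lower at 22.7 and 21.6 FPKM, under control values of 35.0 and 32.3 FPKM, with a log2 fold change of -0.58 (SE 0.12, limma adjusted p = 0.210). In Sox4f/f Rxrb was above Rxra in both mice, and in the other genotype Rxra was above Rxrb in both. These opposite signs held under all alternatives of scaling, filter and left-out library. Rxrg, an isotype found in few tissues, was lower at 13.9 and 15.8 FPKM, under control values of 20.7 and 19.5 FPKM. Its log2 fold change of -0.42 (SE 0.14, limma adjusted p = 0.269) was no longer past the threshold under 6 of 13 alternatives. The log2 fold changes were 0.27 for Rara, 0.01 for Rarb and 0.04 for Rarg.
Of 16 other retinol and retinal oxidoreductases, 6 passed the filter and none was called. The most abundant were Dhrs4, with 83.9 and 91.8 FPKM against 60.2 and 74.8 FPKM, and Adh1, with 56.8 and 90.9 FPKM against 69.0 and 64.5 FPKM. The genes induced by retinoic acid in many cells gave 1 call in 4 tested genes, Rarres2, while Tgm2 had 46.9 and 54.2 FPKM against 46.4 and 41.6 FPKM.

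**Figure D3:**
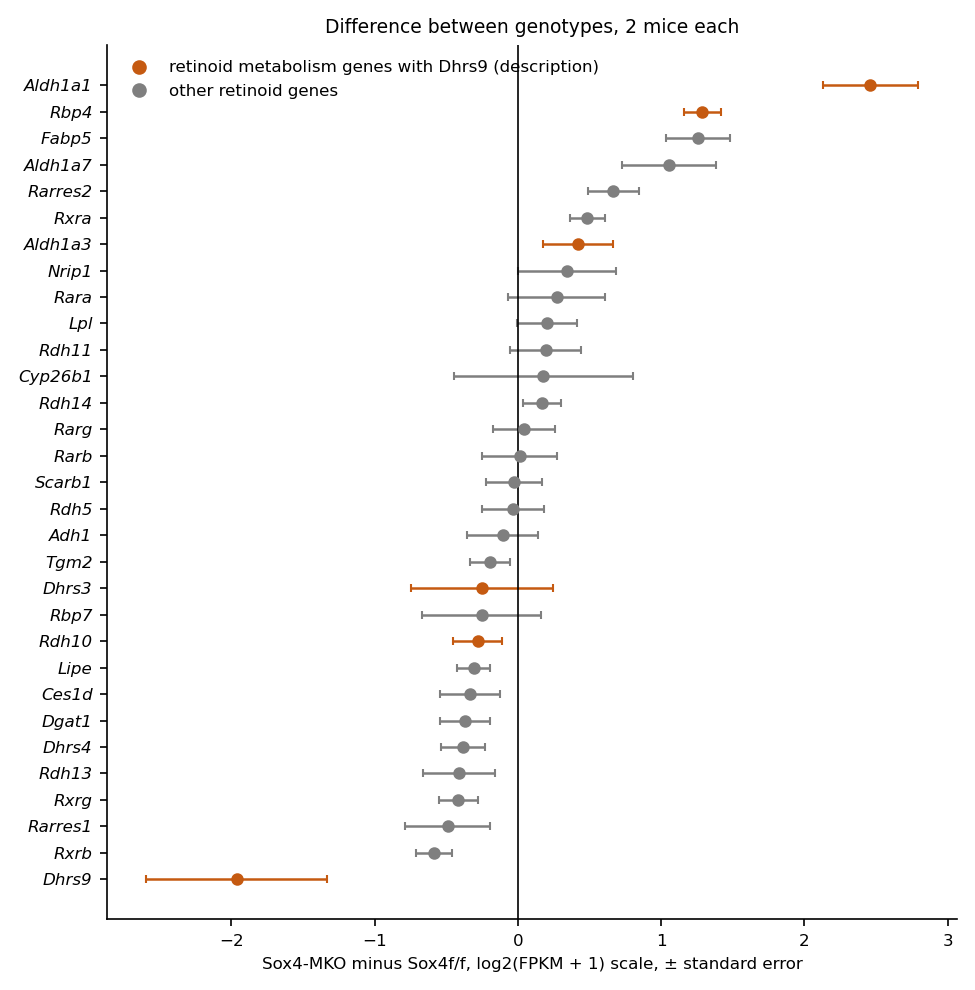
Log2 difference, Sox4-MKO minus Sox4f/f on the log2(FPKM + 1) scale, of the 6 retinoid metabolism genes with Dhrs9 that passed the filter (orange) and of 25 other retinoid genes (grey), with bars of 1 standard error. Dhrs9 at -1.96 and Aldh1a1 at 2.46 stand at the ends, and most other genes lie near 0.

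**Figure D4:**
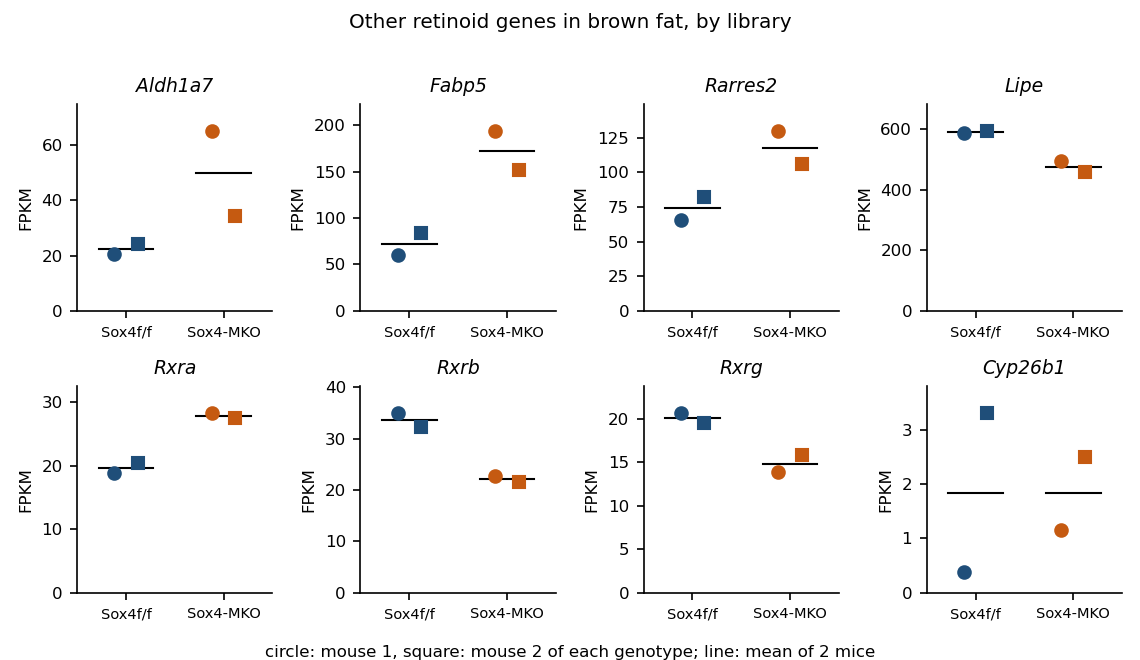
FPKM of 8 other retinoid genes in each library, the 7 called at an unadjusted p under 0.05 and Cyp26b1, on linear axes that start at 0, with symbols as in the plot of the 9 genes. Rxra and Rxrb differ in opposite directions with close replicates, and Cyp26b1 spreads from 0.37 to 3.31 FPKM within Sox4f/f.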

How the data were processed

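RNA of BAT from 4 mice was sequenced in pairs of reads on an Illumina HiSeq. The authors deposited FPKM per gene symbol for each library. Their processing notes name Cufflinks 2.1.1, Cuffdiff and the build mm10, while the aligner and the annotation are not given in the sources used here. Extraction and library kit differ between the labels (column kit, stranded mRNA kit) and the methods (TRIzol, TruSeq). An exact 0 can be a failed estimate, so such genes are described as listed at 0.

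FPKM are not counts, so log2(FPKM + 1) was fitted with limma 3.58.1 in R 4.3.3 with genotype as the only term and a trended prior, two-sided, over 12877 genes with averaged FPKM above 1 in at least 1 genotype. The p-values and standard errors rest on the spread between 2 mice per genotype, moderated toward a trend over all tested genes. They are therefore not a measure of the spread of a single gene alone. Fragments were estimated from the FPKM of 1 fragment in genes with 1 transcript of at least 1500 nt and from the longest coding transcript (GENCODE M21, GRCm38), and are approximate.

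The members and lists were chosen with earlier results of these data known. Named genes are the 9 members, other retinoid genes with an unadjusted p under 0.05, the 3 most abundant retinoid receptors, and the 5 genes nearest in pattern to Dhrs9 and Rbp4. Others are named after their values were seen. Alternatives were quantile normalization, scaling to a common median, scaling that left out Ucp1 and the mitochondrial genome's genes, and pseudocounts of 0.1 and 0.01. Further alternatives were averaged FPKM limits of 0.1 and 5 and none, a replicate block, no moderation, a fold of at least 1.5, and leaving out each library. No moderation and the fold rule were applied to counts of called genes only. The alternatives counted for single genes leave these out, so a single gene's call was not checked under them. The white adipocyte list (8 of 9 symbols found) summed to 215 and 169 FPKM in controls versus 516 and 608 FPKM, the endothelium list to 292 and 369 against 196 and 247 FPKM, and the epithelium and keratinocyte list to between 0.67 and 1.20 FPKM. Figures were drawn with matplotlib 3.10.9.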

Additional observations from a re-analysis of the deposited data

How the results depend on the processing

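The log2 differences of Dhrs9, Aldh1a1, Rbp4 and Rdh10 kept their sign under all 13 alternatives run for them, and that of Aldh1a3 under its 12. The cause of the changes that follow was not tested. That of Dhrs3 turned to 0.42 without Sox4f/f mouse 2 and 0.04 without Sox4-MKO mouse 1 (range -0.92 to 0.42 with each library left out). Of the other retinoid genes, 3 lower and 4 higher at an unadjusted p under 0.05, quantile normalization and the scaling that left out Ucp1 and the mitochondrial genome's genes each left 1 lower, a fold of at least 1.5 left 0 lower, and no moderation left 1 higher. Leaving out a library gave 1 to 6 lower and 1 to 5 higher. Over all genes, 1066 lower and 1024 higher became 399 lower with a fold of at least 1.5 and 553 higher without moderation, and 380 to 1015 lower and 433 to 1443 higher with each library left out, the fewest without Sox4f/f mouse 1. With the fold rule 874 were higher, and with that scaling 746 were lower and 1322 higher. As a replicate block, the mouse number gave 938 lower and 970 higher genes and 2 lower and 4 higher retinoid genes. The labels do not say that equal numbers share a litter, and the deviations of same-numbered libraries correlated at -0.01, so the mice were not treated as pairs. Depth limits Aldh1a2, Stra6 and Bco1, which rest on at most about 17 fragments per library.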

Other observations

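Cyp26b1, which inactivates retinoic acid, was set beside Dhrs3 after the values had been seen, since both are known targets of retinoic acid. Cyp26b1 had 0.37 and 3.31 FPKM in Sox4f/f mice 1 and 2 and 1.16 and 2.50 FPKM in Sox4-MKO mice 1 and 2, the same order of the 4 libraries as for Dhrs3, with 40.3, 104, 44.3 and 66.7 FPKM. The gap between the control mice was wider than in 99.0% of tested genes for Cyp26b1 and than in 98.3% for Dhrs3. Between the genotypes the log2 fold change of Cyp26b1 was 0.18 (SE 0.62, limma adjusted p = 0.905). Other genes known to respond to retinoic acid did not follow that order. In the same sequence of libraries Rarb had 3.70, 5.96, 5.37 and 4.22 FPKM, Tgm2 46.9, 54.2, 46.4 and 41.6 FPKM, Rarres1 1.42, 1.73, 0.50 and 1.24 FPKM, and Nrip1 11.7, 6.72, 9.05 and 14.6 FPKM. Rarres2, with 65.4, 82.5, 130 and 106 FPKM, did not follow it either. With 4 libraries no correlation is given.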
